A study of Mus musculus with 26 samples.

Results

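The nuclear-encoded subunits of the respiratory chain and ATP synthase were followed as 85 genes, taken by symbol from a table of 48432 genes measured in mouse brown adipose tissue. A gene was included when its symbol began with Nduf and a subunit letter and number (complex I), was Sdha to Sdhd (complex II), or began with Uqcr (complex III), Cox and a number from 4 to 8 (complex IV) or Atp5 (complex V, the ATP synthase), and when it reached 1 FPKM in at least 3 of the 26 libraries. FPKM counts fragments relative to transcript length and to all mapped fragments, so that levels of different genes are given per length. Of 90 symbols with such a name, 85 passed: 37 of complex I, 4 of complex II, 10 of complex III, 16 of complex IV and 18 of complex V. The pseudogene Uqcrh-ps2 passed with 3 libraries at 1 FPKM or more, Atp5g2 with 6 and Cox6a2 with 8. The 5 symbols that did not pass had 0 such libraries each, and their highest values were 0.835 FPKM for Atp5l2-ps, 0.487 for Atp5l-ps1, 0.158 for Cox8c and 0 for Atp5l-ps2 and Cox7b2. In the annotation 82 of the 85 are protein-coding, and Uqcrh-ps1, Uqcrh-ps2 and Atp5k-ps2 are processed pseudogenes. Atp5s (also Dmac2l) and Atp5sl (also Dmac2) carry the name without being subunits of the ATP synthase.

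The respiratory chain sits in the inner mitochondrial membrane. Complexes I and II take electrons from NADH and succinate and pass them to ubiquinone, complex III passes them on to cytochrome c, and complex IV gives them to oxygen, while complexes I, III and IV pump protons that complex V uses to make ATP. In brown fat the uncoupling protein Ucp1 lets protons back across the membrane and so turns respiration into heat, and the tissue is known for abundant respiratory complexes with comparatively little ATP synthase. Most subunits are encoded in the nucleus, and a few of the catalytic ones in mitochondrial DNA.

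Brown adipose tissue came from mice of 2 months of age. All mice had loxP sites around both copies of Klf15 (KLF15 flox/flox). FF mice had no Cre. In BKO mice (Ucp1-Cre/+;K15F/F) the Ucp1 promoter drives Cre, so that deletion is restricted to brown adipocytes and other cells of the tissue keep Klf15. Each genotype gave 13 libraries: 3 of fed and 3 of fasted mice at room temperature, 4 after a cold challenge and 3 after cold plus fasting; the length of cold and fasting was not given in the sources used here. The design text gives 3 to 4 mice per group, and p-values measure the spread between the libraries of a group. The values come from bulk tissue, in which fewer cells of a type and less RNA per cell cannot be told apart.

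Depth is unknown, since only FPKM values were used. The targeted gene, Klf15, was lower in BKO than in FF mice in all 4 conditions, by log2 differences from -2.55 (adjusted p = 1.16e-08, limma with Benjamini-Hochberg adjustment) fed to -1.38 (adjusted p = 6.49e-05) fasted. Library names carry running numbers, of which 1 to 8 were all FF (all 3 fasted, 3 of 4 cold and 2 of 3 fed libraries) and 15 to 32 held the other 18 libraries, so that for fasted mice number range and genotype cannot be told apart. Of the 13 brown adipocyte markers, Cidea lay between 1598 and 2311 FPKM and Fabp4 between 7023 and 10115 FPKM. Others ranged more widely, such as Plin1 (158 to 648), Adrb3 (35.0 to 230) and Elovl3 (49.1 to 830). Ucp1 was listed at 0 in 8 libraries, which is treated as a failed estimate, and otherwise reached 8700 FPKM. A sum that holds such a 0 cannot be set against one that does not. With Ucp1 as listed, the 13 summed to 11445 to 14172 FPKM in FF and 11176 to 14306 in BKO mice in cold. The sums were 14127 to 16111 and 16526 to 17278 in fed mice. They were 13208 to 14543 and 14179 to 17391 in fasted mice, and 18073 to 21775 and 19832 to 22452 in cold plus fasting. Over the 12 markers without Ucp1, the median log2 difference of cold against fed mice was -0.0117 in FF and -0.0301 in BKO mice. For cold plus fasting against fed mice it was -0.0446 and 0.0368. Over 12 skeletal muscle markers the summed FPKM ranged from 17.3 to 230 per library, and over 5 erythroid markers from 120 to 996. Of the 13 mitochondrially encoded subunits, 11 were listed at 0 in every library, and the other two, mt-Nd6 and mt-Atp6, had means of 0.789 and 0.361 FPKM, so that this class was not compared.

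Respiratory chain transcripts were among the most abundant of the tissue. By mean FPKM over all libraries, 19 of the 50 highest genes and 32 of the 100 highest were members, with Cox8b, a subunit of complex IV, at rank 2 (4759 FPKM) and Atp5b, the catalytic beta subunit of ATP synthase, at rank 3 (4238 FPKM). The 85 genes together made up 12.97% to 17.3% of all FPKM in a library. Of them, 70 had a mean of at least 100 FPKM, 22 of at least 1000 FPKM and 10 lay under 20 FPKM. The median of the means was 399 FPKM in complex I, 916 in complex II, 1035 in complex III, 1034 in complex IV and 354 in complex V. Complex I ran from Ndufa4l2 (9.18 FPKM) to Ndufa4 (1477 FPKM), a protein that keeps its complex I name but is a subunit of complex IV. Ndufs3, one of its nuclear-encoded core subunits, the group that holds the redox centres, stood at 229 FPKM. Complex II ran from the membrane anchor Sdhc (394 FPKM) to the flavoprotein Sdha (1151 FPKM). Complex III reached 1506 FPKM in Uqcr10. In complex V levels ran from Atp5b down to Atp5g2 at 0.713 FPKM. Between libraries the coefficient of variation (SD over mean) of the 70 genes at 100 FPKM or more had a median of 0.113, with a range from 0.0737 to 0.242.

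**Figure D1:**
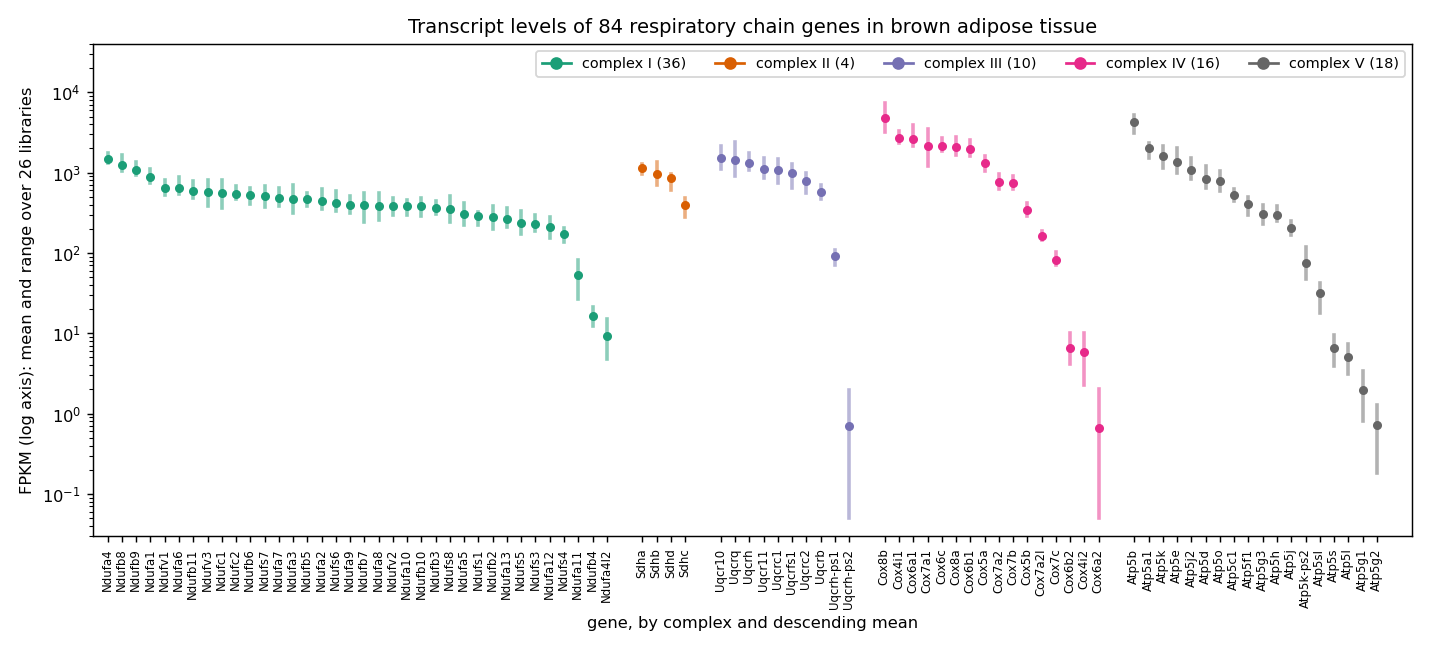
Mean (point) and range (line) of FPKM over 26 libraries on a log axis, for 84 of the 85 genes, ordered by mean within its complex; lines that reach 0 end at the lower part of the axis. In every complex most genes lie above 100 FPKM, and complexes I, III, IV and V each end in genes under 20 FPKM.

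Isoforms of complex IV and V subunits differed widely in level. Cox7a1, Cox8b and Cox6a2 are the isoforms named for heart and skeletal muscle. Cox7a1 (2166 FPKM) lay above its partner Cox7a2 (759 FPKM) and Cox8b above Cox8a (2093 FPKM), while Cox6a2 (0.654 FPKM, listed at 0 in 5 libraries) was far under Cox6a1 (2628 FPKM). The 3 genes for the c subunit of the membrane ring of ATP synthase encode the same mature protein, and their levels were far apart, with Atp5g3 at 303 FPKM, Atp5g1 at 1.94 and Atp5g2 at 0.713. Some of these low values are uncertain, because 21 of the 85 genes have another annotated gene that matches at least 80% of their coding sequence at 95% identity or more, and how shared reads were assigned is not given in the sources used here. Atp5l (5.05 FPKM) has 8 such copies, Atp5g2 and Cox7c (81.8 FPKM) have 2 each, and Atp5g1 and Ndufb4 (16.2 FPKM) have 1 each. Exons of 29 members overlap those of another gene, among them Ndufa11, Ndufa9, Uqcrc2 and Ndufa4l2, each with a gene on the opposite strand, and without knowledge of strand such reads cannot be told apart.

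Promoters are shown for 4 genes on which the results below turn, namely Atp5b and Cox7a1, which rose in cold, and Sdhd and Ndufa11, which fell on fasting. Each line holds the 250 bases before the start site, from RefSeq on GRCm38.p6, written 5′ to 3′ on the strand of the gene. Capitals mark matches, on either strand, to the letters of motifs known for factors that act on respiratory genes: NRF1 (GCATGCGC), GABPA (CCGGAAG), YY1 (AAGATGGCG), ERR (AAGGTCA), the SP and KLF factors (GGGCGGG) and KLF (CACCC).
Atp5b, chr10:128083057-128083306, plus strand: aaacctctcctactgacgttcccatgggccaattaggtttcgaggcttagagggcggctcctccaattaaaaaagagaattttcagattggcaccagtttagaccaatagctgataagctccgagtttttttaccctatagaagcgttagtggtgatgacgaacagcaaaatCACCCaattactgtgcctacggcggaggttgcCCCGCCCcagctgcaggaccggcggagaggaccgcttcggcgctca
Cox7a1, chr7:30183921-30184170, plus strand: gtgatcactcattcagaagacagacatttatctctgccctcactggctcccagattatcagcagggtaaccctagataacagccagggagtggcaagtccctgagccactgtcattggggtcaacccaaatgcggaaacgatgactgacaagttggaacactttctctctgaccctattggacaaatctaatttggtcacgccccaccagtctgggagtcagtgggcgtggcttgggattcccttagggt
Sdhd, chr9:50603850-50604099, minus strand: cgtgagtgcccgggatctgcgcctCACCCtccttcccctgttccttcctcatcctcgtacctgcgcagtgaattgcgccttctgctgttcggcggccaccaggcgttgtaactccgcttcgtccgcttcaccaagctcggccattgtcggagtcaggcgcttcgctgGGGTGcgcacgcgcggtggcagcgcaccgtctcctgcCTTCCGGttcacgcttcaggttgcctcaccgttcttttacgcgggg
Ndufa11, chr17:56717512-56717761, plus strand: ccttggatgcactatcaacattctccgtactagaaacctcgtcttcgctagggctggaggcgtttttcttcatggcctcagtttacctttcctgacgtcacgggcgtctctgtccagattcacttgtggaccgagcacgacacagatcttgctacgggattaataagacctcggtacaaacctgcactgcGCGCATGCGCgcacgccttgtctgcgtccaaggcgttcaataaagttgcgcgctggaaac
In Atp5b the marked letters are CACCC, 78 bases before the start, and CCCGCCC (the reverse complement of GGGCGGG), 46 bases before it. Cox7a1 has no match to any of the 6 in these 250 bases. Sdhd has CACCC at 226 bases, GGGTG (its reverse complement) at 83 bases and CTTCCGG (the reverse complement of the GABPA letters) at 46 bases before the start. Ndufa11 has the NRF1 letters on both strands, overlapping, 60 and 58 bases before the start. A GGGCGGG in Sdhd that begins 3 bases before the start and crosses it is not marked.

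Windows of 300 bases (250 before to 50 after the start) were available for 68 of the 85 genes and for 27025 genes in all. A gene was counted if any of its windows held the letters. The NRF1 letters were in 14.7% of these members against 3.05% of all these genes. YY1 was in 11.8% against 1.64%, GABPA in 23.5% against 9.93% and ERR in 11.8% against 5.38%. The SP and KLF letters were in 33.8% against 27.9%, and the short KLF letters in 52.9% against 59.8%. These shares are descriptions of letters and do not show that a factor binds there. The 27025 genes were not limited to the 12702 tested in this tissue, so the shares among expressed genes are not known. No window was given for, among others, Atp5k-ps2, Uqcrh-ps1, Uqcrh-ps2, Uqcrb, Uqcrc2, Uqcrq, Ndufs1, Ndufa2, Ndufa4l2, Ndufb9, Cox4i1, Cox4i2, Cox6a2, Cox6c, Atp5a1 and Sdhc.

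In fed mice no difference in respiratory chain transcripts between the genotypes passed the test. Fed at room temperature, 0 of 85 members passed limma at an adjusted p under 0.05, against 0.22% of all 12702 genes tested (0.0394% higher and 0.181% lower). The unadjusted p was under 0.05 for 1 member. The median log2 difference of BKO minus FF, on the log2(FPKM + 1) scale used for every difference below (it understates changes of low genes), was -0.00341, with a median SE of 0.10. The summed FPKM of the 85 genes was 62815 ± 2554 in FF and 62866 ± 5213 in BKO mice (SD, n = 3 each). In cold 0 of 85 passed (0.402% of all genes, 0.0236% higher and 0.378% lower), with 0 at an unadjusted p under 0.05, and the sums were 67133 ± 1801 and 66954 ± 1249 (SD, n = 4 each). Averaged over the 4 conditions 0 of 85 passed (2.97% of all genes, 1.26% higher and 1.71% lower), with 18 at an unadjusted p under 0.05. Of the 85 averaged differences 78 were positive, with a median of 0.07 beside 0.00307 over all genes tested. By condition 41 were positive fed, 46 in cold, 79 fasted and 81 in cold plus fasting. For fasted mice genotype and number range cannot be told apart. Shares of positive differences over all genes are not given here. With array weights, which count libraries far from the fit for less, 6 passed on average (5 higher and 1 lower) and 1 was lower in fed mice. For array weights and the other alternative settings, here and below, the share of all genes called is not given. Their counts are therefore not set against it.

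In fasted mice 3 of 85 members, or 3.53%, were higher in BKO mice and 0 lower, against 4.53% of all genes called higher, 4.15% lower and 8.68% in either direction. These were Uqcrfs1, the Rieske iron-sulfur protein of complex III, Ndufb7, an accessory subunit of complex I, and Ndufa4l2, a paralogue of Ndufa4. Uqcrfs1 stood at 767, 649 and 648 FPKM in the FF libraries and at 814, 861 and 842 in the BKO libraries, so that the groups did not overlap (log2 difference 0.29, SE 0.08, adjusted p = 0.0189). Ndufb7 stood at 306, 243 and 290 against 357, 325 and 397 FPKM (0.36, SE 0.11, adjusted p = 0.0413), again without overlap. Ndufa4l2 stood at 6.03, 5.61 and 4.75 against 8.17, 6.67 and 8.40 FPKM (0.44, SE 0.13, adjusted p = 0.0335), and all BKO libraries were the higher ones. The sums of FPKM were 57065 ± 5938 in FF and 63049 ± 3362 in BKO mice (SD, n = 3 each). All 3 calls ended when the number range of the libraries was a covariate (adjusted p from 0.304 to 0.578), when only the 2 groups were fitted (0.175 to 0.232), and without FF replicate 3 (0.0865 to 0.167) or BKO replicate 3 (0.0721 to 0.213). Of the 85 members 1 passed with array weights, with no filter, or without FF replicate 2 or BKO replicate 1, 6 without FF replicate 1 and 7 when BKO replicate 3 of cold plus fasting was left out of the fit. Among 12 brown adipocyte markers tested in fasted mice, 3 were higher and 1 lower in BKO mice, and their part was not tested. In cold plus fasting 0 of 85 passed (0.236% of all genes, 0.0157% higher and 0.22% lower), with 6 at an unadjusted p under 0.05, while 81 of the differences were positive and their median was 0.15; the sums of FPKM were 67214 ± 781 in FF and 74781 ± 10847 in BKO mice (SD, n = 3 each), the latter with a highest library, replicate 3, at 86863.

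**Figure D2:**
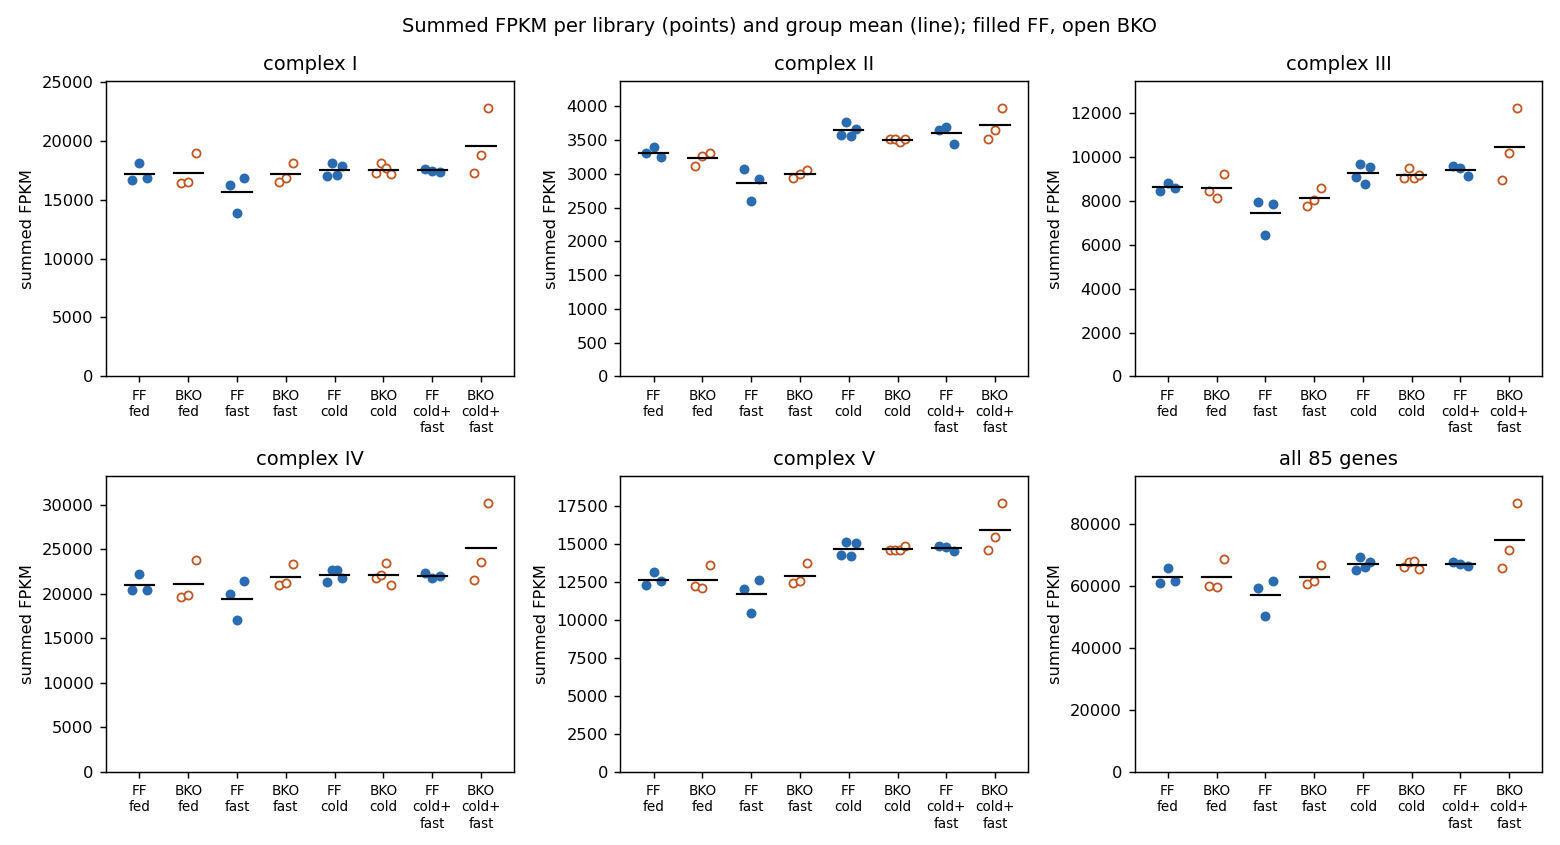
Summed FPKM of the genes of each complex, and of all 85, in each library (points; filled FF, open BKO) with the group mean (line), on axes from 0. The lowest total is that of FF fasted replicate 2 (50339) and the highest that of BKO cold plus fasting replicate 3 (86863).

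Fasting at room temperature lowered a part of the respiratory chain transcripts in FF mice. Against fed mice 19 of 85 members fell and 0 rose, and the members that fell included all complexes: 9 of complex I, 2 of complex II, 2 of complex III, 1 of complex IV (Cox5a) and 5 named for complex V, Atp5sl among them. That is 22.4% of the members, beside 19.4% of all genes called lower and 37.5% called in either direction, so the share that fell was near that of all genes, while no member was among the 18.1% of genes called higher. The median log2 difference was -0.17 over the 85 members and -0.000267 over all genes tested. By complex the medians were -0.17 (I), -0.21 (II), -0.24 (III), -0.11 (IV) and -0.16 (V).

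Sdhd, the membrane anchor of complex II that helps to bind ubiquinone (chr9, 50596357 to 50603812 on GRCm38), had the smallest adjusted p. Its level was 889, 931 and 876 FPKM in the fed FF libraries and 767, 615 and 671 in the fasted ones, with no overlap (log2 difference -0.40, SE 0.07, adjusted p = 0.000149). In BKO mice it went from 796, 899 and 909 FPKM fed to 717, 771 and 771 fasted, also without overlap, and passed again (-0.20, SE 0.07, adjusted p = 0.0375). The BKO call ended in 8 of 34 alternative settings (adjusted p up to 0.146), among them without any 1 of the 3 fasted BKO libraries. Ndufa11, an accessory subunit of the membrane arm of complex I (chr17, 56717767 to 56722141), showed the largest fall among the genes that passed, from 49.2, 50.1 and 52.3 FPKM fed to 35.8, 27.1 and 33.7 fasted (-0.64, SE 0.14, adjusted p = 0.000735). In BKO mice it stood at 47.8, 45.4 and 59.3 FPKM fed and 39.7, 35.9 and 43.9 fasted, which did not pass (-0.34, SE 0.14, adjusted p = 0.0657).

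Of the c subunit genes, Atp5g1 fell from 1.68, 1.80 and 2.91 FPKM in fed to 1.28, 0.83 and 1.22 in fasted FF mice (-0.56, SE 0.19, adjusted p = 0.0255), without overlap, a call that ended in 6 of 32 alternatives. Atp5g3 stood at 275, 291 and 288 FPKM in fed and 243, 232 and 241 in fasted FF mice. The groups were apart and the fall passed (-0.25, SE 0.07, adjusted p = 0.00477). Ndufa4l2 fell from 8.68, 8.60 and 8.30 to 6.03, 5.61 and 4.75 FPKM (-0.57, SE 0.13, adjusted p = 0.00128). Atp5g3, Ndufa4l2, Sdhd, Ndufa11 and Atp5sl (-0.51), a protein linked to complex I assembly rather than to ATP synthase, kept their call in FF mice in each of the 33 alternatives that could be run, those that left out a library included; no fasted FF library is numbered from 15 on. Other falls were Ndufb2 (-0.38), Ndufb7 (-0.37), Ndufa8 (-0.34), the complex III subunits Uqcrfs1 (-0.30) and Uqcrc1 (-0.27), Sdhc (-0.28) and Atp5a1, the alpha subunit of ATP synthase (-0.25). Without FF fasted replicate 2, the library with the lowest sum, 7 members passed, and 8 passed in a fit of only the 2 groups. In FF mice the muscle marker sum was 35.8 to 92.5 FPKM fed and 17.3 to 76.5 fasted and the erythroid sum 120 to 188 and 226 to 266, with 1 of 10 and 0 of 5 tested markers called by limma. The endothelial sum went from 163 to 191 FPKM fed to 194 to 271 fasted (2 of 6 markers called higher and 1 lower), and the white adipocyte sum from 47.9 to 53.4 down to 25.4 to 38.7 (1 of 5 higher and 2 lower), both without overlap. Ighm, the lymphocyte marker tested, fell by 0.87. Of 12 brown adipocyte markers tested, 3 were called higher and 2 lower. The part of these cells in the result was not tested.

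In BKO mice fasting lowered 2 of 85 members, Sdhd and Atp5sl (-0.35, adjusted p = 0.0143), which is 2.35% of them beside 27.4% of all genes called in either direction (12.9% higher and 14.6% lower). The median difference was -0.00166. With median centring 1 member was higher and 2 lower, Sdhd no longer among them, and with array weights 2 were higher and 5 lower. Here too the endothelial sum was higher (177 to 187 FPKM fed, 219 to 283 fasted). The white adipocyte sum was lower (45.6 to 82.1 and 20.7 to 31.2). The macrophage sum (93.4 to 132 and 77.2 to 89.3) and the Schwann cell sum (22.8 to 26.9 and 17.9 to 19.1) were also lower. In FF mice these last sums overlapped between fed and fasted libraries. Ighm fell by 1.08 in BKO mice, and of 12 brown adipocyte markers tested 2 were called higher and 1 lower. The part of these cells was not tested. The count was 5 when BKO replicate 3 of cold plus fasting was left out, 0 without BKO fasted replicate 1, 1 without replicate 2 or 3 or with no filter, and 0 in a fit of only the 2 groups. Both genes were also among the 19 of FF mice, 10.5% of the FF calls and 100% of the BKO calls, and the matching share over all genes is not given here. The test of the difference between the fasting responses called 0 members by limma (0.716% of all genes, 0.299% higher and 0.417% lower), with 4 at an unadjusted p under 0.05, and 1 member with array weights. It had a median of 0.15 (median SE 0.15) and was positive for 82 of 85 genes, and the fasted FF libraries in it have a number range that no BKO library shares. The smallest adjusted p of these tests was 0.138, that of Ndufa4l2 (difference of responses 0.59, SE 0.18).

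**Figure D3:**
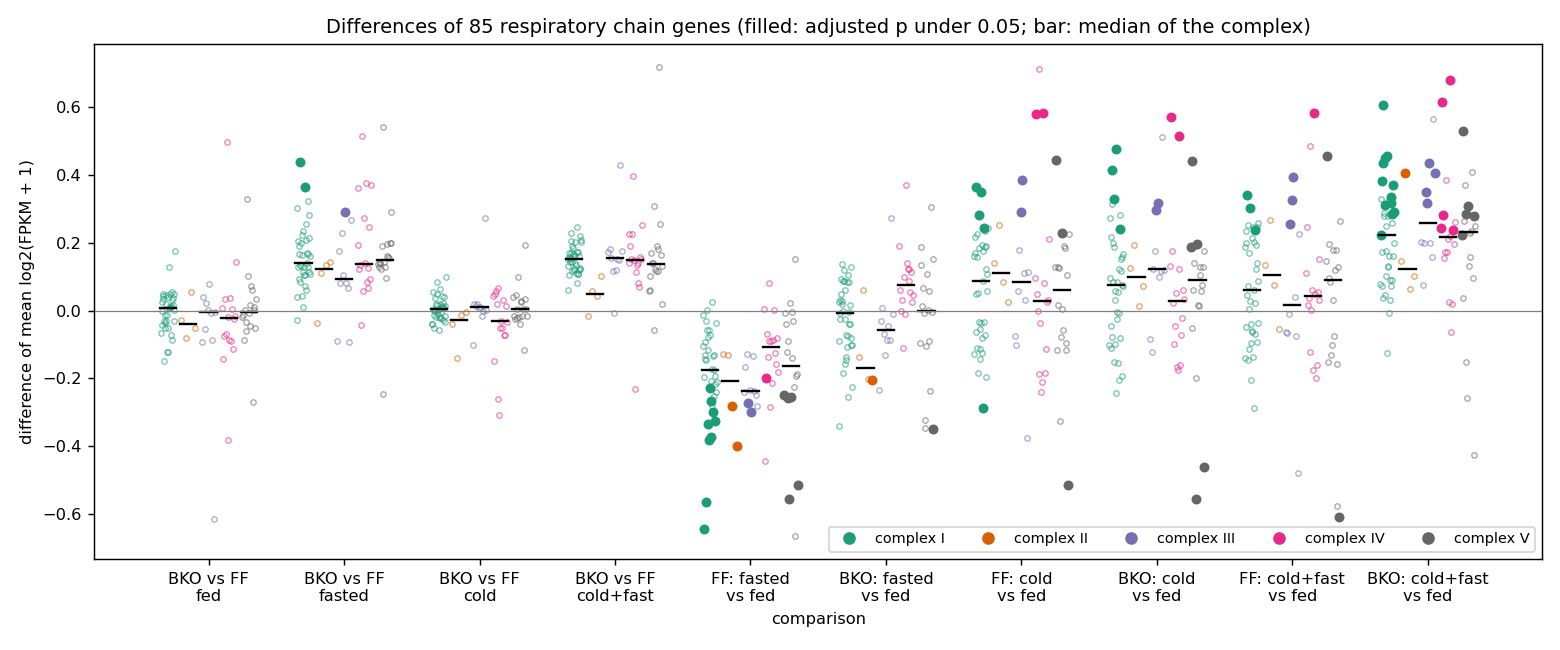
Difference of mean log2(FPKM + 1) for each of 85 genes in 10 comparisons, coloured by complex, filled where the adjusted p was under 0.05, with the median of each complex as a bar. The filled points lie below 0 in FF fasted against fed mice (19 genes) and all lie above 0 in BKO cold plus fasting against fed mice (27 genes).

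In cold Atp5b, Cox7a1, Uqcrfs1, Uqcrc2 and Ndufa9 were among the subunits that rose in both genotypes, while the share of members called in either direction was not above that of all genes. In FF mice 10 of 85 members rose and 2 fell against fed mice, or 14.1%, beside 23.6% of all genes (13.3% higher and 10.3% lower). In BKO mice 11 rose and 2 fell, or 15.3%, beside 16.2% (9.72% higher and 6.5% lower). With the libraries centred on their medians the split was 7 higher and 3 lower in FF and 6 higher and 3 lower in BKO mice. The number that passed depended on how libraries were weighted: with array weights it was 43 in FF (36 higher and 7 lower) and 26 in BKO mice (23 higher and 3 lower). These counts have no share of all genes beside them, and the shares above do not apply to them. Among the fed FF libraries, replicate 1 had a weight of 5.82 and replicates 2 and 3 had weights of 0.87 and 0.49. The median log2 difference was 0.06 in FF and 0.07 in BKO mice. The calls of the 2 genotypes, which share no library, had 10 genes in common, with the same sign in all 10. That is 83.3% of the FF calls and 76.9% of the BKO calls. The matching share over all genes is not given here, so it is not known whether such overlap is particular to the members. The test of the difference between the cold responses called 0 members by limma (0.00787% of all genes), with 1 at an unadjusted p under 0.05.

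Atp5b (chr10, 128083273 to 128090391) had the smallest adjusted p. Its level was 3422, 3621 and 3466 FPKM in fed and 4686, 4970, 4584 and 4827 in cold FF mice, 36.1% higher and without overlap (log2 difference 0.44, SE 0.06, adjusted p = 2.19e-05). In BKO mice it was 3411, 3349 and 3654 FPKM fed and 4741, 4675, 4624 and 4803 in cold, again without overlap (0.44, SE 0.06, adjusted p = 3.79e-05). Cox7a1, the muscle-named isoform of a small complex IV subunit (chr7, 30184144 to 30186078), went from 1658, 1844 and 1556 to 2405, 2464, 2474 and 2738 FPKM in FF mice (0.58, SE 0.13, adjusted p = 0.00286) and from 1523, 1574 and 2148 to 2360, 2295, 2576 and 2652 FPKM in BKO mice (0.51, SE 0.13, adjusted p = 0.00937). All cold libraries lay above all fed ones in each genotype. The BKO call of Cox7a1 ended without BKO fed replicate 1 or 2 (adjusted p = 0.0629 and 0.0588).

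Uqcrfs1 rose by 0.38 in FF mice, from 844 ± 32.2 to 1102 ± 59.1 FPKM, and by 0.32 in BKO mice, from 891 ± 9.27 to 1111 ± 63.8 FPKM (SD, n = 3 fed and 4 cold). Ndufa9, an accessory subunit at the joint of the arms of complex I, rose by 0.28 and 0.33, and Uqcrc2, a core protein of complex III, by 0.29 and 0.30. Of the genes at low levels Cox4i2, the alternative isoform of Cox4i1, rose by 0.58 and 0.57 and Ndufb4 by 0.35 and 0.47. Atp5g3 rose by 0.23 and 0.20, calls that ended with median centring in both genotypes, and Atp5s fell by 0.52 and 0.46 in FF and BKO mice. Atp5g1 fell in BKO mice (-0.56, adjusted p = 0.0359), from 2.89 ± 0.422 to 1.65 ± 0.253 FPKM (SD, n = 3 and 4), while in FF mice it did not pass (-0.33, adjusted p = 0.197). No gene of complex II passed in cold, with the 4 values between 0.03 and 0.25 in FF and between 0.01 and 0.19 in BKO mice.

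In cold 4 FF calls were made without FF fed replicate 1 and 0 among the libraries numbered from 15 on, where fed and cold FF mice have 1 library each. In BKO mice leaving out a fed library gave 6 (replicate 1) or 4 (replicate 2), and leaving out a cold library gave 7 (replicate 2) or 8 (replicate 4), and no filter gave 7. The erythroid sum moved with cold, from 120 to 188 FPKM fed to 342 to 601 in cold FF mice, with 5 of 5 markers called higher, and from 174 to 471 fed to 415 to 701 in BKO mice, with 4 of 5 called higher; its part in the result was not tested. The muscle sum was 35.8 to 92.5 FPKM fed and 33.1 to 230 in cold in FF mice and 53.0 to 146 and 23.96 to 229 in BKO mice, with 0 of 10 tested markers called in either genotype by limma. The endothelial sum rose without overlap, from 163 to 191 FPKM fed to 193 to 243 in cold FF mice. In BKO mice it rose from 177 to 187 to 210 to 230. The white adipocyte sum was 47.9 to 53.4 fed and 24.6 to 34.8 in cold in FF mice. In BKO mice it was 45.6 to 82.1 and 21.6 to 54.1. The macrophage (88.5 to 103 and 73.2 to 83.0) and lymphocyte sums (4.49 to 8.53 and 18.9 to 43.4) parted in FF mice only. The part of these cells was not tested.

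**Figure D4:**
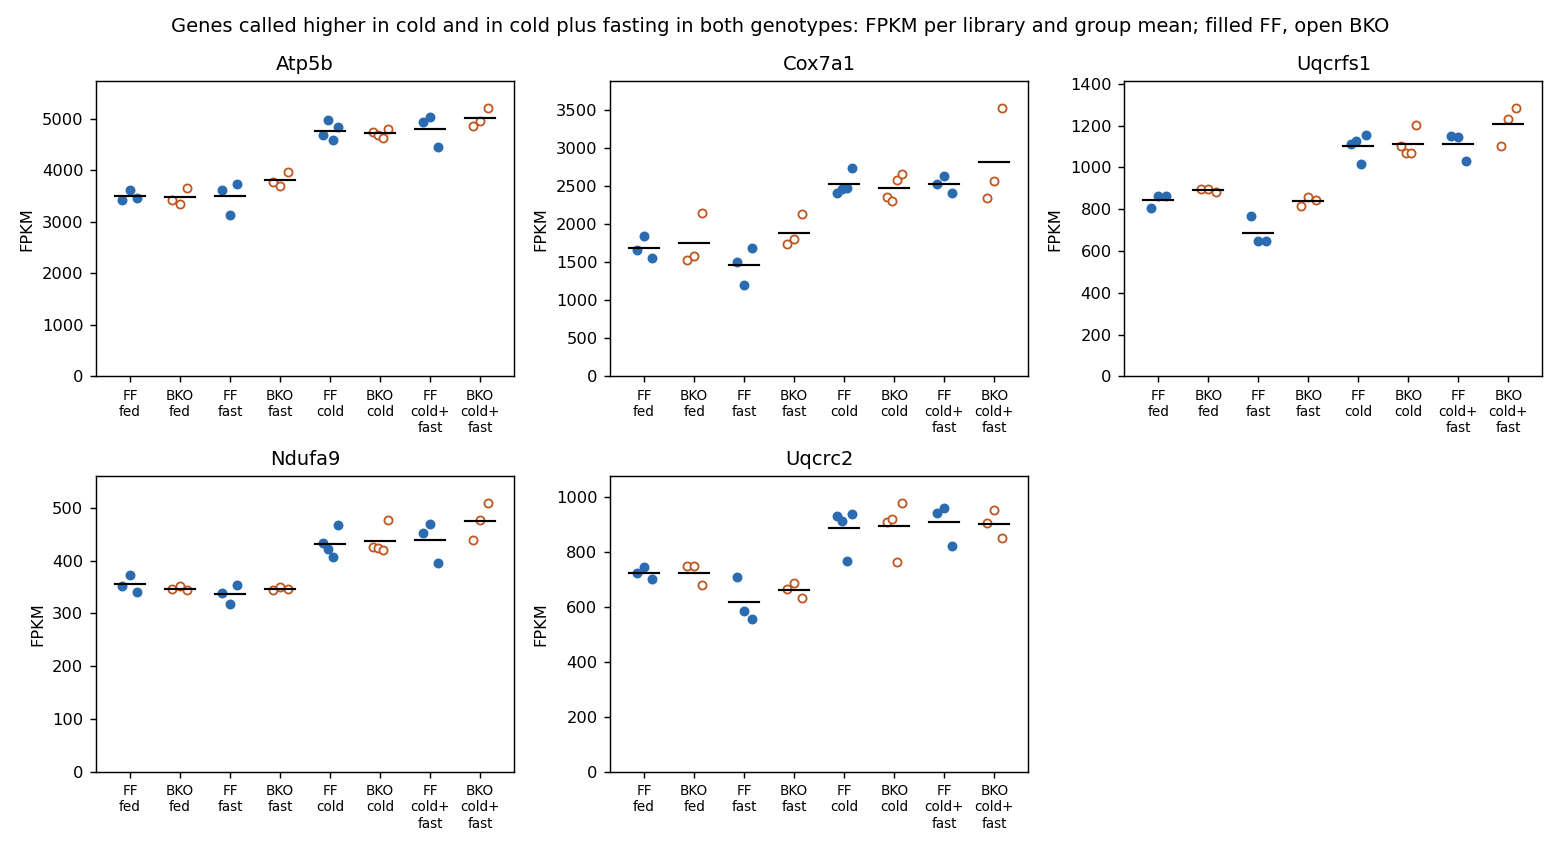
FPKM in each library (points; filled FF, open BKO) with group means (lines) for 5 genes called higher in cold and in cold plus fasting in both genotypes, on axes from 0. In all 5 the cold and the cold plus fasting libraries of each genotype lie above its fed libraries, as for Atp5b with fed libraries up to 3654 FPKM and cold ones from 4584 FPKM.

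In cold plus fasting the members that passed were nearly all higher than in fed mice. In FF mice 8 of 85 members rose and 1 fell, or 10.6%, beside 20.5% of all genes (11.5% higher and 8.93% lower), with a median of 0.05; median centring gave 5 rises and 3 falls, and array weights gave 28 rises and 7 falls. In BKO mice 27 rose and 0 fell, or 31.8%, beside 19% of all genes (10% higher and 8.93% lower), with a median of 0.22. The rises in BKO mice comprised 12 genes of complex I, 1 of complex II (Sdhb, the iron-sulfur subunit, 0.41), 4 of complex III, 5 of complex IV and 5 of complex V. The genotypes had 8 calls in common, 88.9% of those in FF and 29.6% of those in BKO mice, and the matching share over all genes is not given here. The test of the difference between the responses called 0 members by limma (0.00787% of all genes), with 4 at an unadjusted p under 0.05 and a median of 0.15.

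Atp5b stood at 4933, 5021 and 4457 FPKM in FF (0.45, adjusted p = 5.13e-05) and at 4855, 4954 and 5206 FPKM in BKO mice (0.53, adjusted p = 1.05e-05), all above the fed libraries. Cox7a1 stood at 2526, 2624 and 2412 FPKM in FF (0.58, adjusted p = 0.00537) and at 2341, 2558 and 3522 FPKM in BKO mice (0.68, adjusted p = 0.0021). Ndufa9, Uqcrc2, Uqcrfs1, Atp5b and Cox7a1 were among the genes called higher in cold and in cold plus fasting in both genotypes, comparisons that share their fed libraries. The BKO calls rested largely on replicate 3 and on the fed libraries. Their number was 11 without BKO cold plus fasting replicate 3, 12 without BKO fed replicate 1 and 12 without BKO fed replicate 2, 15 with no filter and 1 in a fit of only the 2 groups. The erythroid sum was 450 to 547 FPKM in FF and 427 to 996 in BKO mice in cold plus fasting, with 5 of 5 markers called higher in FF (median 1.69) and 4 of 5 in BKO mice (median 1.19) against fed mice, and Ighm was higher by 1.70 and 1.01. That replicate 3 also had the highest muscle marker sum of its group, with 184 FPKM against 75.2 and 84.3. Its erythroid sum was the highest too, with 996 FPKM against 522 and 427, as were its white and brown adipocyte sums. Its endothelial sum (153 FPKM) and Schwann cell sum (17.1 FPKM) were the lowest of the group. Its macrophage and lymphocyte sums lay between those of the other libraries. The part of these markers' cells was not tested. In FF mice 5 members passed with no filter or when replicate 1 of cold plus fasting or fed replicate 1 or 2 was left out, 14 when BKO replicate 3 of cold plus fasting was left out, and 4 with the number range as a covariate.

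Of the subunits often taken to stand for a whole complex, 1 per complex, only Uqcrc2 (complex III) rose in cold and in cold plus fasting in both genotypes. Ndufb8, of complex I, did not pass in any comparison: it stood at 1342 ± 91.9 FPKM in fed and 1165 ± 119 in fasted FF mice (SD, n = 3 each), a log2 difference of -0.21 (adjusted p = 0.133), and at 1229 ± 53.0 FPKM in cold (SD, n = 4). Cox4i1, of complex IV, stood at 2534 ± 174 FPKM fed and 2542 ± 199 fasted in FF mice (SD, n = 3 each) and at 2705 ± 48.6 in cold (SD, n = 4), and passed only in BKO mice in cold plus fasting (0.24, adjusted p = 0.0274). Sdhb, of complex II, passed in the same comparison alone, and stood at 903 ± 22.05 FPKM in fed FF mice (SD, n = 3) and 1077 ± 69.6 in cold (SD, n = 4; 0.25, adjusted p = 0.0598). Atp5a1, of complex V, fell in fasted FF mice from 1962 ± 17.4 to 1652 ± 111 FPKM and rose in BKO mice from 1936 ± 34.9 fed to 2260 ± 98.0 in cold plus fasting (SD, n = 3 each) and 2205 ± 91.6 in cold (SD, n = 4).

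Cold changed the balance within some pairs of isoforms or paralogues of complex IV subunits and of the c subunit of ATP synthase. The ratio of 2 FPKM values in 1 library does not depend on how the library was scaled. Cox7a1 made up 69.2% ± 0.574 of Cox7a1 plus Cox7a2 in fed FF mice and 71.0% ± 2.70 in fed BKO mice (SD, n = 3 each), and 76.1% ± 0.970 and 76.3% ± 1.58 in cold (SD, n = 4 each). The log2 ratio was higher in cold by 0.45 over both genotypes (exact permutation test within genotypes, two-sided, p = 0.000816, the smallest it can give; adjusted p = 0.0098 over 24 tests of 6 pairs), with cold libraries at ratios from 2.95 to 3.53 and fed ones from 2.21 to 2.87. In cold plus fasting it was higher by 0.50 (exact permutation test, adjusted p = 0.015). The shift with fasting did not pass (-0.05, exact permutation test, adjusted p = 0.617).

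Cox4i2 remained under 0.36% of Cox4i1 plus Cox4i2 in every library, and its log2 ratio to Cox4i1 was higher in cold by 0.56 (exact permutation test, adjusted p = 0.015). Ndufa4l2 relative to Ndufa4 was higher by 0.45 in cold and by 0.53 in cold plus fasting (exact permutation tests, adjusted p = 0.015 for both). Among the libraries numbered from 15 on, the cold shifts of Cox4i2 and Ndufa4l2 were 0.44 and 0.47 and did not pass (exact permutation test, adjusted p = 0.0571 for both). Atp5g1 relative to Atp5g3 was lower in cold by 0.89 (exact permutation test, adjusted p = 0.0098) and with fasting by 0.53 (adjusted p = 0.015, exact permutation test); Atp5g1 reads may belong in part to its near-identical copy. The shift of Cox8b to Cox8a in cold did not pass (0.08, exact permutation test, adjusted p = 0.273), nor did that of Cox6b2 to Cox6b1 (-0.24, exact permutation test, adjusted p = 0.23), except that the latter passed without FF fed replicate 3 (-0.39, exact permutation test, adjusted p = 0.0241). Cox6a2 and Atp5g2, with means under 1 FPKM, were not tested.

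Between genotypes 3 ratios passed over all 4 conditions, each higher in BKO mice: Cox8b to Cox8a (0.12, exact permutation test, adjusted p = 0.0182), Cox7a1 to Cox7a2 (0.12, exact permutation test, adjusted p = 0.0384) and Atp5g1 to Atp5g3 (0.46, exact permutation test, adjusted p = 0.015). The Cox8b share of the pair was 67.6% ± 1.29 in FF and 70.0% ± 0.929 in BKO mice fed and 66.1% ± 0.381 and 70.2% ± 0.281 fasted (SD, n = 3 each), and in cold it was 70.2% ± 1.92 and 69.6% ± 0.439 (SD, n = 4 each). The libraries of the genotypes did not overlap in fed or fasted mice and overlapped in cold. Without the fasted groups, a setting chosen after seeing the data, none of these 3 passed (0.07, 0.07 and 0.36, exact permutation test, adjusted p = 0.269, 0.307 and 0.197). The Cox7a1 call also ended without any 1 of 13 of the 26 libraries (exact permutation test, adjusted p up to 0.0799).

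**Figure D5:**
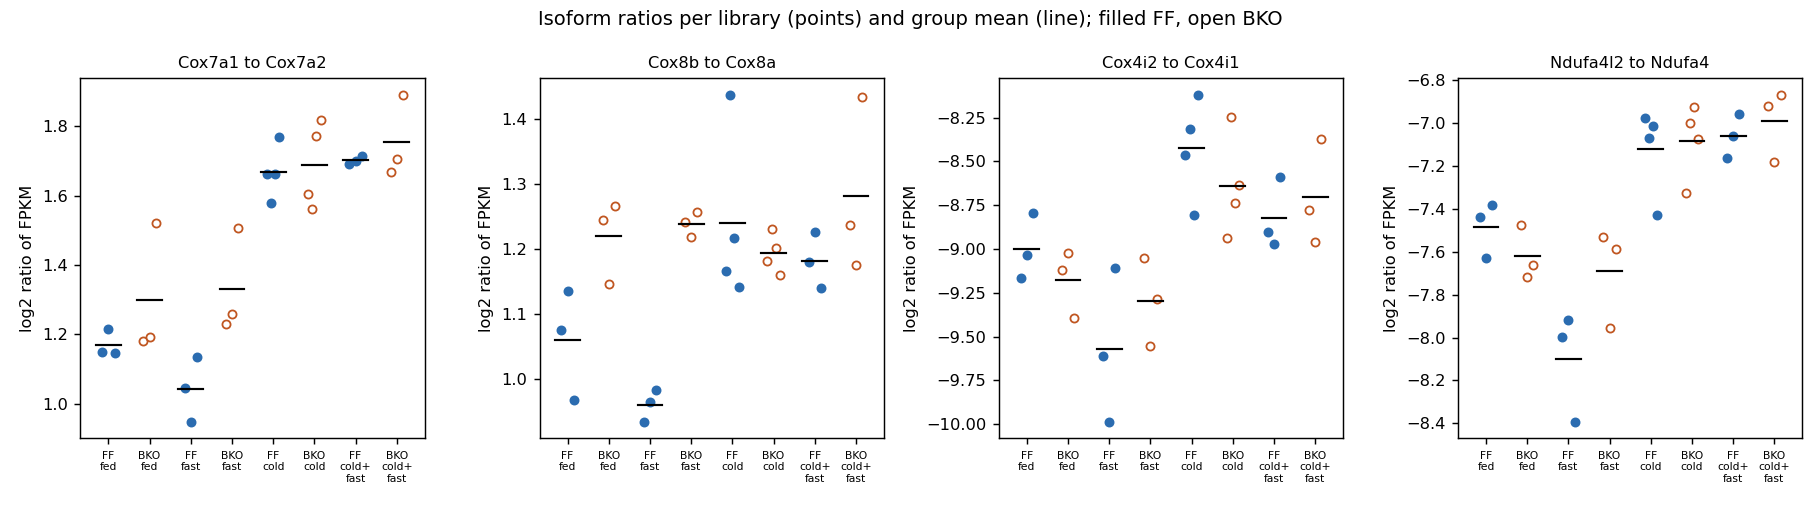
Log2 ratio of FPKM of 4 isoform pairs in each library (points; filled FF, open BKO) with group means (lines). For Cox7a1 to Cox7a2 the cold and cold plus fasting libraries of each genotype lie above its fed and fasted libraries; for Cox8b to Cox8a the genotypes part in fed and fasted mice and overlap in cold.

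Most of the factors that assemble the complexes were lower in mice of both genotypes fasted at room temperature. Of 45 assembly factors tested, 30 fell and 0 rose in fasted FF mice (median -0.45), and 24 fell and 2 (Sco2, 0.46, and Uqcc3, 0.28) rose in fasted BKO mice (median -0.33), beside medians of -0.17 and -0.00166 for the subunits and 19.4% and 14.6% of all genes called lower. Examples in FF mice by limma were Bcs1l, which inserts the Rieske protein into complex III (-0.99, adjusted p = 8.68e-09), and Taco1, a translational activator for complex IV (-0.997, adjusted p = 2.24e-08). Others by limma were Uqcc1 of complex III (-0.89, adjusted p = 1.28e-08) and Cox10, which acts in heme A synthesis (-0.88, adjusted p = 2.07e-06). In BKO mice Bcs1l fell by 0.85, Taco1 by 0.90 and Uqcc1 by 0.58. Of 16 genes for ubiquinone synthesis, cytochrome c and other entry points, 12 fell and 0 rose in fasted FF mice (median -0.40) and 8 fell and 0 rose in fasted BKO mice (median -0.17), among them Coq5 (-0.83 and -0.66) and Pdss1 (-0.98 and -0.78) of ubiquinone synthesis. Of 20 general mitochondrial proteins 10 fell, among them citrate synthase Cs (-0.48), and 1 rose (Tomm20, 0.36) in FF mice, and 8 fell and 0 rose in BKO mice. In cold 18 assembly factors rose and 1 fell in FF mice, beside 13.3% of all genes higher and 10.3% lower. In BKO mice 9 rose and 2 fell, beside 9.72% higher and 6.5% lower. Uqcc2 of complex III was at 0.67 in FF and 0.53 in BKO mice and Cox14 at -0.53 and -0.51. The other fall in BKO mice was Bcs1l (-0.23). In cold plus fasting 14 assembly factors rose and 1 fell in FF mice (median 0.23), beside 11.5% of all genes higher and 8.93% lower. In BKO mice 12 rose and 0 fell (median 0.21), beside 10% higher and 8.93% lower. Of the 16 genes for ubiquinone synthesis, cytochrome c and other entry points, 5 rose in FF and 4 in BKO mice there, and 0 fell.

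Between genotypes in fasted mice 10 of the 45 assembly factors and 6 of the 16 electron carrier genes were higher in BKO mice and 0 lower, beside 4.53% of all genes higher and 4.15% lower, including Uqcc1 (0.42, adjusted p = 0.00137), Atpaf2, an assembly factor of ATP synthase (0.48, adjusted p = 0.00238), and Etfdh, which passes electrons from fatty acid oxidation to ubiquinone (0.52, adjusted p = 0.00114). Of 17 transcriptional regulators, 1 was higher (Esrra, 0.56, adjusted p = 0.0488) and 5 lower, namely Klf15 itself, the nuclear receptor Esrrb (-0.79) and the coactivators Ppargc1b (-0.65), Pprc1 (-0.50) and Ppargc1a (-1.24, adjusted p = 0.035), which act on mitochondrial genes. These comparisons share the limit of number range given above. Esrrb was at a low level, with a mean of 0.819 FPKM and a range from 0.0566 to 1.92 over all libraries. Against fed mice, 5 of the 17 regulators were called higher and 3 lower in fasted FF mice, with Pprc1, Esrrb, Ppargc1a and Esrra among them. Of all genes 18.1% were called higher and 19.4% lower there. In fasted BKO mice 1 was called higher and 1 lower (Klf15 and Ppargc1b), beside 12.9% and 14.6% of all genes. In cold Esrrb rose by 1.07 in FF and 0.80 in BKO mice and Perm1, a regulator of oxidative genes in muscle, by 1.08 and 0.91, while Klf15 fell by 0.97 in FF and by 0.53 in BKO mice.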

How the data were processed

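FPKM values of 26 libraries were used as deposited by the authors. The submitters' processing notes name STAR, Cufflinks, Cuffdiff and the build mm10, with no versions; annotation, strand and the assignment of shared reads are not given in the sources used here. The table gives 1 value per gene and library, and without counts neither depth nor counting error is known. In 33 genes, 0 of them members, some libraries held exactly 0 while the other values were at least 100 FPKM; these genes were left out as failed estimates, Ucp1 among them. Of 48432 gene IDs, 48051 matched GENCODE M21 (GRCm38), from which gene positions, types and overlaps were taken; symbols are those of the table.

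The 12702 genes that reached 1 FPKM in 3 or more libraries were tested. Using limma 3.58.1 (R 4.3.3), a linear model with 8 group means, moderated variances and an intensity trend was fitted to log2(FPKM + 1) of every library. It compared the genotypes in each condition and on average, each condition with fed mice within genotype, and the difference of those responses between genotypes. Tests were two-sided, with Benjamini-Hochberg adjustment over all genes within a contrast and a threshold of 0.05. Isoform ratios were compared by exact permutation of libraries within conditions or within genotypes, two-sided, adjusted over 24 tests. Near-identical copies were searched with blastn 2.17.0, and other steps used Python 3.11.15 with numpy 2.4.6, pandas 2.3.3 and matplotlib 3.10.9. The fit was tested on simulated data.

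The members, the gene lists and the isoform pairs were chosen with earlier results of these data known. Genes were named by a rule: a subunit per complex and the isoform pairs by name, per comparison up to 8 called members with the highest and the lowest differences, the highest and lowest level per complex, and up to 4 genes of each other list with the smallest adjusted p; Sco2, Uqcc3, Tomm20, Esrra, Pprc1 and the fall of Bcs1l in cold were named after their values were seen. A member's own values are not reported here, while counts and sums include it. The lists for macrophage, endothelial, white adipocyte, lymphocyte and Schwann cell markers were used only to look at composition. In cold FF mice 4 of 8 macrophage markers fell, 3 of 6 endothelial markers rose and 1 of 5 white adipocyte markers fell. The 1 lymphocyte marker tested rose and 1 of 3 Schwann cell markers fell. In cold BKO mice 3 of 8 macrophage markers fell, 2 of 6 endothelial markers rose and 2 of 5 white adipocyte markers fell. There 1 of 3 Schwann cell markers fell and the lymphocyte marker did not pass. Of 12 brown adipocyte markers tested, 2 rose and 2 fell in cold FF mice, and 1 rose and 1 fell in cold BKO mice. Replicates were numbered in accession order. Alternatives were a pseudocount of 0.1, no filter, a mean of at least 5 FPKM, median centring, array weights, the number range of the libraries as covariate, only libraries numbered from 15 on, only the groups compared, and each library left out.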

Additional observations from a re-analysis of the deposited data

Results flagged for a closer look

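In groups of 4 libraries the highest or lowest value was set against the rest of its group, for the sums of each complex and for the genes described in cold. Of 42 such groups 4 had a library far from the others by Dixon's criterion, where chance gives about 1 in 20. In BKO mice in cold, replicate 4 was the highest library in 2 of them: its complex V sum was 14827 FPKM with the others between 14601 and 14608, and its Ndufa9 level was 478 FPKM with the others between 420 and 425. In FF mice in cold, replicate 3 was the lowest library in 2 of them: its Uqcrc2 level was 765 FPKM with the others between 914 and 937, and its Atp5s level was 3.87 FPKM with the others between 5.90 and 5.98. The lowest Uqcrc2 value was above the fed FF libraries (701 to 745 FPKM), and the Atp5s values of all 4 libraries were below those of fed FF mice (6.54 to 9.55 FPKM). The cause was not tested.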

How the results depend on the processing

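No paired analysis was possible because the labels give no replicate numbers that are shared between groups. The pseudocount of 0.1 and the mean of at least 5 FPKM kept every total of called members within 1.5 times, as did median centring (24 falls in fasted FF mice), and no call reversed. Median centring moved the split, however, to 7 higher and 3 lower in FF and 6 and 3 in BKO mice in cold, 5 and 3 in FF and 19 and 1 in BKO mice in cold plus fasting, and 1 and 2 in fasted BKO mice, where the call of Sdhd ended (adjusted p = 0.0982). Array weights moved the counts to 6 for BKO against FF on average (5 higher, 1 lower), 1 fed and 1 fasted, to 43 (36 higher, 7 lower) for cold and 35 (28 higher, 7 lower) for cold plus fasting in FF mice, to 7 (2 higher, 5 lower) for fasting and 26 (23 higher, 3 lower) for cold in BKO mice, and to 1 for the difference of fasting responses. Without a filter, which brings in genes at 0, the counts were 1 for BKO against FF fasted, 5 for cold plus fasting in FF mice, and 1, 7 and 15 for fasting, cold and cold plus fasting in BKO mice. With the number range as covariate they were 0 for BKO against FF fasted and 4 for cold plus fasting in FF mice. Among libraries numbered from 15 on, FF mice gave 0 in cold and 1 in cold plus fasting; their fed group there is 1 library, which is assumed to vary like the other groups. With only the groups compared, which leaves fewer libraries to estimate the spread, the counts were 0 for BKO against FF fasted, 8 for fasting in FF mice, and 0 for fasting and 1 for cold plus fasting in BKO mice. For none of these settings is the share of all genes called given here.

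With each library left out in turn the counts ranged from 0 to 2 (BKO against FF on average), 0 to 1 (fed), 0 to 7 (fasted), 7 to 24 (FF fasting), 4 to 15 (FF cold), 5 to 14 (FF cold plus fasting), 0 to 5 (BKO fasting), 4 to 15 (BKO cold), 11 to 35 (BKO cold plus fasting) and 0 to 1 (difference of fasting responses), and stayed at 0 for BKO against FF in cold and in cold plus fasting and for the differences of the cold and cold plus fasting responses. The isoform shifts ranged from 0.10 to 0.14 (Cox7a1 to Cox7a2, genotype), 0.24 to 0.39 (Cox4i2 to Cox4i1, cold plus fasting), -0.33 to -0.20 (Cox6b2 to Cox6b1, genotype) and -0.39 to -0.13 (Cox6b2 to Cox6b1, cold). Among libraries numbered from 15 on the cold shifts of Cox4i2 to Cox4i1 (0.44) and Ndufa4l2 to Ndufa4 (0.47) did not pass. Without the fasted groups, chosen after seeing the data, the genotype shifts were 0.0674 (Cox7a1), 0.0709 (Cox8b) and 0.362 (Atp5g1), and with libraries from 15 on as well 0.0775, 0.126 and 0.0904, none of them passing. Causes were not tested, and unknown depth sets no limit that could be given for genes under 20 FPKM.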
